A study of Homo sapiens with 24 samples.

Results

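The comparison described here is irradiation of HEK cells that already held a DNA minor groove binding ligand. It uses 12 of the 24 arrays of the study: 6 from cells given 50 uM ligand 1 h before 2 Gy of radiation, and 6 from cells given 50 uM ligand and no radiation. They were chosen by their titles, so no measured value entered the choice. In both groups the cells had been plated 24 h before the experiment, and RNA was taken 4 h after treatment. HEK is a line derived from human embryonic kidney, and the labels name neither the subline nor the ligand. The other 12 arrays, from untreated cells and from cells given 2 Gy alone, entered the estimate of spread and the comparison of radiation with and without the ligand. Each group has 3 replicate numbers, and each number has 2 single-colour Cy3 arrays lettered A and B. The letters carry 19700 probes each and share 0 identifiers, so 39400 probes were measured in 3 pairs of samples. No label says that the 3 numbers were separate cultures, so a p-value here reflects how these samples vary, and that variation may be technical.

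Ligands of this class lie in the narrow groove of the double helix and are held there without a covalent bond. Some of them lower the yield of radiation damage to DNA in cultured cells, and others raise the sensitivity of cells to radiation. Ionizing radiation breaks both strands of DNA, and the kinase ATM responds by activating p53 in cells where that protein is functional. Activated p53 raises transcripts of genes such as CDKN1A, an inhibitor of the cell cycle kinases, and MDM2, which returns p53 to a low level. The title of the series asks how such a ligand modulates radiation, and the present comparison isolates the radiation step in cells that had the ligand beforehand. The probes carry array identifiers only, and 0 of 39400 matched the human gene table used here. The response of p53 targets, repair genes or HEK markers was therefore not analysed here, and results are given for probes by identifier.

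The array given both treatments was much dimmer than the ligand array in number 2, somewhat dimmer in number 1 and similar in number 3. On letter A the median probe intensity as deposited was 651.5 after the ligand and 552.7 after both treatments in number 1, and 168 and 166.5 in number 3. In number 2 it was 581.8 after the ligand and 248.3 after both. On letter B the same medians were 509.5 and 434 in number 1, 487.9 and 186.5 in number 2, and 211.2 and 225 in number 3. The dimness of the irradiated sample in number 2 was thus seen on both letters. Arrays were quantile normalized within each letter on the log2 scale, and all log2 values below are on that scale unless they are called deposited. The 12 arrays list 90 of their 236400 probe values as not detected.

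The number 2 sample given both treatments stood apart from the ligand sample it is paired with. Across letter A probes its Spearman correlation with the 4 arrays of number 1 was 0.831 to 0.860. With the ligand array of its own number it was 0.725, and with the radiation array of its own number 0.879. In number 1 the array given both treatments correlated at 0.853 with its ligand array, and in number 3 at 0.876. On letter B the number 2 array correlated with the arrays of number 1 at 0.699 to 0.791, with its own ligand array at 0.741 and with its own radiation array at 0.847. The ligand array of number 2 had lower correlations with number 1 on letter A, from 0.617 to 0.683. On both letters number 2 held an irradiated pair and an unirradiated pair, and on letter A the irradiated pair lay nearer to number 1.

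**Figure D1:**
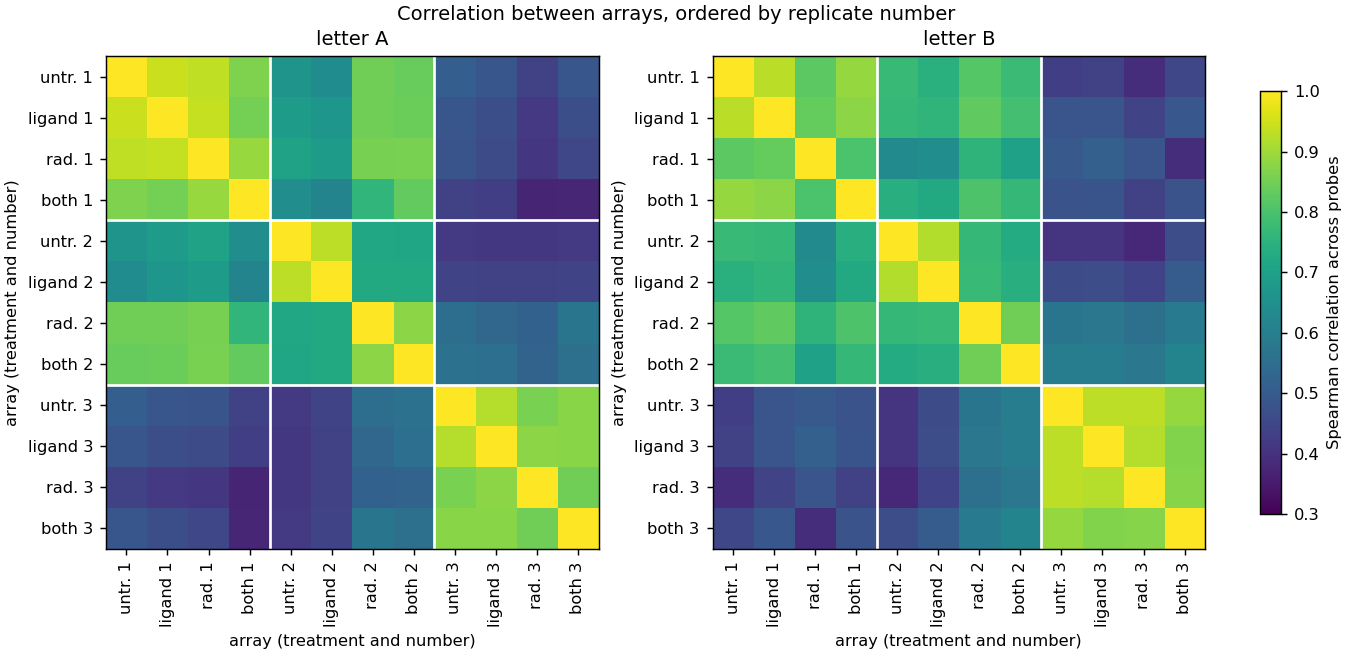
Spearman correlation across probes between the 12 arrays of each letter, with rows and columns ordered by replicate number (white lines) and, within a number, by treatment (untr. is untreated, rad. is radiation alone, both is ligand and radiation). On letter A the irradiated arrays of number 2 are brighter against number 1, 0.831 to 0.860 for the array given both treatments, than against the unirradiated arrays of their own number.

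The 10 human control sequences, which were printed in several copies on both letters and were listed for numbers 1 and 2, placed the number 2 sample in the same way, on spots of their own. Their levels are given as the mean log2 intensity of the copies minus the median probe of the array. Control obshuman10K#11008 on letter A was at 0.33 after the ligand and 3.21 after both treatments in number 2. It was at 2.85 after the ligand and 2.66 after both in number 1, and at 0.04 in untreated cells of number 2. Control obshuman10K#11003 was at 3.72 after the ligand and 1.16 after both treatments in number 2, against 1.55 and 1.32 in number 1. Over the 10 controls, the number 2 array given both treatments differed from the ligand array of number 1 by a median of 0.38 log2 units on letter A and 0.29 on letter B. From the ligand array of its own number it differed by a median of 1.26 and 1.22. It differed from the radiation array of its own number by 0.26 and 0.098. For these controls the sample given both treatments in number 2 was thus closer to number 1 than to its own ligand sample on both letters.

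Letters A and B carry these control sequences separately, so they give a repeat measurement of each sample. In number 2 the difference between both treatments and ligand ran from -2.56 to 2.89 over the 10 controls on letter A and from -2.22 to 2.28 on letter B. The letters differed by a median of 0.21 log2 units, and their values correlated at a Pearson coefficient of 0.979. In number 1 the differences ran from -1.54 to 1.18 on letter A and from -1.11 to 1.43 on letter B, with a Pearson coefficient of 0.932. The letters there differed by a median of 0.34. Of the 10 controls, 5 had the same direction on both letters in number 1, and 8 in number 2. The largest fall in number 1 was that of obshuman10K#11005, by 1.54 on letter A and 1.11 on letter B. In number 2 that control stood 0.26 and 0.50 higher after both treatments. Wide differences of a control were thus repeated between the letters of a sample, and several did not recur in the other number.

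Of the 10 human controls, 3 had one direction on both letters in both numbers. Control obshuman10K#11002 was higher after both treatments than after the ligand by 1.18 on letter A and 1.43 on letter B in number 1, and by 1.26 and 1.39 in number 2. After radiation alone it was lower than in untreated cells in number 1, with differences of -0.64 and -0.88, and higher in number 2, with 0.59 and 1.09. Control obshumcontrol#11009 was lower after both treatments, with differences of -0.85 and -0.79 in number 1 and -1.26 and -1.14 in number 2. It was also lower after radiation alone in all 4 comparisons, with differences from -1.85 to -0.53. Control obshuman10K#11006 was higher by 0.05 and 0.75 in number 1 and by 1.32 and 1.90 in number 2. The 0.05 had a standard error over copies of 0.19, so its direction is uncertain. After radiation alone this control differed by -1.18 and -0.78 in number 1 and by 1.33 and 1.28 in number 2. The values of these 3 controls come from 2 pairs of samples, and the files give no gene for the controls. The 13 plant control sequences stayed within -0.49 and 0.44 in both numbers and on both letters.

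The differences in number 2 followed a contrast that involves neither radiation nor the ligand. The difference between both treatments and ligand in number 2 was set against the difference between untreated cells of number 1 and untreated cells of number 2, and these share no array. Across letter A probes, which are not independent replicates, the Spearman correlation was 0.646 and the Pearson correlation 0.742. Across letter B probes they were 0.414 and 0.499. The corresponding Spearman correlations for the differences in numbers 1 and 3 lay between 0.053 and 0.155 on the letters. With each run of neighbouring spots centred on its median, the number 2 values were 0.673 on letter A and 0.405 on letter B. Number 2 was also set against untreated cells of number 3 minus those of number 2. Before centring, the Spearman correlations were 0.423 on letter A and 0.422 on letter B. On letter B the number 2 difference thus followed the contrast with number 3 as closely as that with number 1. The cause was not tested, and the results below are given by number and also without number 2.

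**Figure D2:**
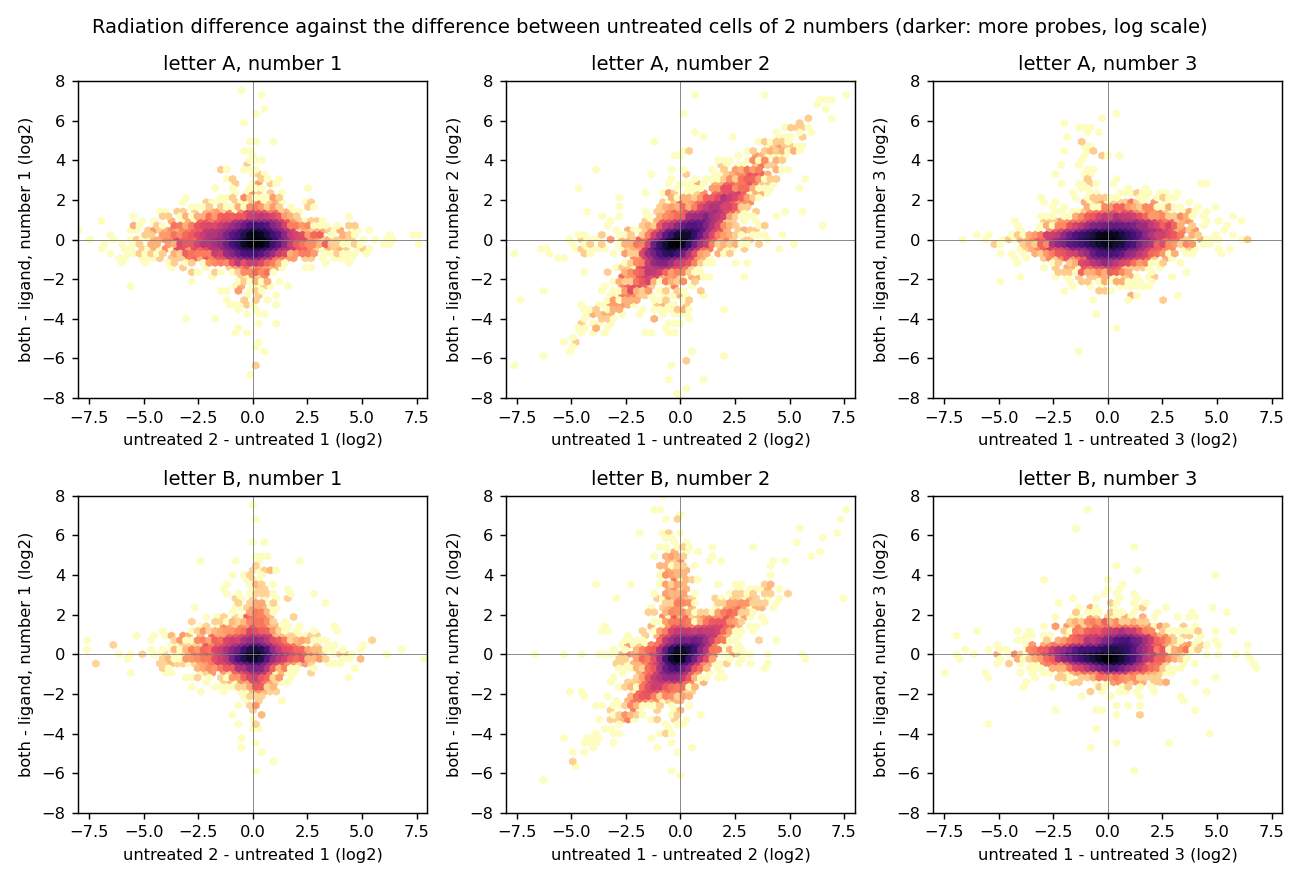
Difference between both treatments and ligand in each replicate number (vertical axes, log2) against the difference between untreated samples of 2 numbers (horizontal axes, log2), for letter A above and letter B below, with darker cells holding more probes on a log scale. The cloud of number 2 is tilted, with Spearman coefficients of 0.646 and 0.414, while those of numbers 1 and 3 lie along the axes; on letter B number 2 also has a vertical arm of probes with high values and little difference between the untreated samples.

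No probe passed the test for radiation in ligand-treated cells. In limma, with replicate number as a block, 0 of 39400 probes (0%) had an adjusted p under 0.05, and the lowest adjusted p was 0.813. At an unadjusted p under 0.05 there were 1920 probes (4.87%), with 846 (2.15%) higher and 1074 (2.73%) lower after irradiation. On letter A 478 (2.43%) were higher and 477 (2.42%) lower, and on letter B 368 (1.87%) were higher and 597 (3.03%) lower. Without number 2 the balance turned, with 759 probes higher against 711. The log2 difference of a single probe had a median standard error of 0.24 for letter A probes and 0.19 for letter B probes. A 95% interval on letter A therefore reached 0.53 log2 units to each side for a probe with the median error, and 0.43 on letter B.

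After normalization, differences beyond 2-fold were more often higher than lower after irradiation, and for most of these probes the widest difference lay in number 2. The mean difference was beyond 2-fold for 1074 probes (2.73%), with 766 (1.94%) higher and 308 (0.782%) lower. Of these, 436 (1.11%) kept their sign across the 3 numbers, 295 (0.749%) of them higher and 141 (0.358%) lower. The widest of the 3 differences lay in number 2 for 81.4% of the 2-fold probes on letter A and 72.0% on letter B. Without number 2 the count was 550, with 364 higher and 186 lower, and without the irradiated arrays of number 2 alone it was 512. It was 2027 without number 1 and 2319 without number 3, where number 2 has more weight in the mean. On values as deposited the balance was opposite, with 231 higher and 2087 lower. The values of the 3 samples given both treatments and those of the 3 ligand samples did not overlap for 1182 probes (3%), 470 (1.19%) of them higher and 712 (1.81%) lower after both treatments. By this count more probes were lower than higher, opposite to the balance at 2-fold.

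Few probes were over 4-fold changed in more than 1 number. On letter A 79 probes were over 4-fold higher and 70 over 4-fold lower in number 1, and 75 and 50 in number 3. In number 2 they numbered 643 and 336. On letter B the counts of higher and lower probes were 128 and 37 in number 1, 414 and 226 in number 2, and 48 and 22 in number 3. The 643 letter A probes chosen for being high in number 2 had a median difference of 2.75 there, which the choice fixes, and medians of 0.04 in number 1 and 0.02 in number 3. The 336 low probes had medians of -2.76, -0.10 and 0.03 in numbers 2, 1 and 3. On letter B the 414 high probes had medians of 2.92, 0.06 and -0.07 in numbers 2, 1 and 3, and the 226 low probes -2.50, -0.05 and -0.05. The low probes shared their direction in number 1 for 60% on letter A and 58.0% on letter B, and in number 3 for 47.9% and 58.0%. For the high probes the shares were 51.6% and 54.4% in number 1 and 51.2% and 42.5% in number 3. Over all probes of letters A and B the median difference was -0.02 and -0.02 in number 1, and 0.01 and -0.05 in number 3. Over 4-fold higher in both numbers 1 and 2 were 4 letter A probes (5.06% of those of number 1 and 0.622% of those of number 2) and 6 letter B probes (4.69% and 1.45%). Over 4-fold lower in both were 0 and 2. Numbers 1 and 3 shared 0 such probes in either direction on both letters. Numbers 2 and 3 shared 5 higher probes on letter A (0.778% of those of number 2 and 6.67% of those of number 3). On letter B they shared 3 (0.725% and 6.25%). Sets of this size among 19700 probes per letter share few or no members even when unrelated, so these overlaps are a description.

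The wide probes of number 2 also differed between radiation alone and untreated cells of that number. The 643 high letter A probes had a median difference of 2.63 between radiation alone and untreated cells of number 2, which are different arrays, and the 336 low probes one of -2.15. Between untreated cells of number 1 and number 2, 586 of the 643 (91.1%) differed by more than 2-fold in the same direction, as did 250 of the 336 (74.4%). Of all letter A probes 9.96% did so in the high direction and 8.21% in the low. On letter B 169 of the 226 low probes (74.8%) did so, against 3.76% of all letter B probes, and 164 of the 414 high probes (39.6%), against 5.10%. Most wide probes of number 2 thus also differed in the contrast between untreated samples, except the high probes of letter B, where fewer did.

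Many of those high letter B probes lay in a minority of the runs of spots. Of the 414 high letter B probes, 240 were beyond 2-fold neither in the contrast of untreated samples nor after radiation alone. The spots lie in 48 runs of 420 neighbours in file order, and 195 of these 240 probes (81.2%) lay in runs spaced 4 apart (1, 5, 9 and so on to 45). Runs so spaced hold 25% of all letter B probes. Run 5 alone held 61 of the 240 and run 9 held 42. Among all 328 letter B probes beyond 2-fold higher in the mean (1.66%), 207 (63.1%) lay in the same runs, with 55 in run 5 and 37 in run 9. For the 438 such probes of letter A (2.22%) the share was 32.0%. Similar crowding was seen in some other sets of 4-fold probes with neither contrast beyond 2-fold, and less or none in the rest. The same runs held 48 of 56 high letter A probes of number 3 (85.7%), 43 of them in run 45. They also held 75 of 115 high (65.2%) and 22 of 36 low (61.1%) letter B probes of number 1. The letter A set of number 3 rests mostly on the single run 45, and its spot order is assumed. In the remaining sets the share ran from 0% (low letter B probes of number 3) and 10% (low letter A probes of number 3) to 42.4% (low letter A probes of number 1). Most letter B probes beyond 2-fold higher in the mean were thus spots of that position, and the position was not particular to number 2. The cause was not tested.

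**Figure D3:**
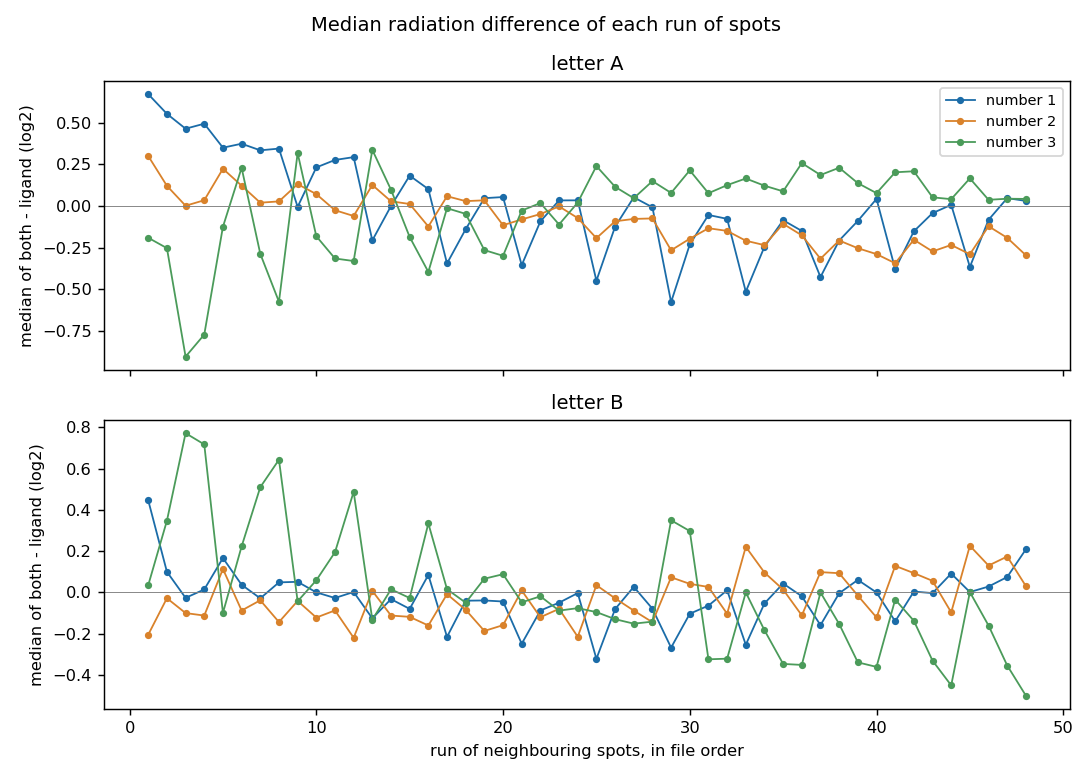
Median over probes of the difference between both treatments and ligand (log2) in each of 48 runs of neighbouring spots, in file order, for each replicate number, with letter A above and letter B below. On letter A the early runs are high in number 1, up to 0.67, and low in number 3, down to -0.90; on letter B number 3 spans -0.50 to 0.77.

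Position also shifted the whole distribution in numbers 1 and 3. On letter A the medians of the runs ranged from -0.58 to 0.67 in number 1 and from -0.90 to 0.34 in number 3, and in number 2 from -0.34 to 0.30. Run accounted for 25.7% of the sum of squares of the difference in number 1, for 2.31% in number 2 and for 25.5% in number 3. On letter B the shares were 8.46%, 4.70% and 44.1%. In 38 of the 48 runs of letter A the medians of numbers 1 and 3 had opposite signs, and in 20 of 48 on letter B. The files of number 3 give no spot order, so their spots were given that of numbers 1 and 2 on the assumption of a shared layout.

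Agreement between numbers was close to none once position was taken out. The Spearman correlation of the difference across letter A probes was 0.120 between numbers 1 and 2, -0.225 between 1 and 3 and -0.030 between 2 and 3. With the runs centred these were 0.041, 0.030 and 0.030. On letter B they were 0.015, -0.052 and -0.057, and 0.035, 0.011 and 0.0043 with the runs centred. Numbers 1 and 3 had the same sign for 41.5% of letter A probes, and for 51.2% with the runs centred. All 3 numbers had one sign for 22.2% of probes on letter A, 1844 higher and 2525 lower, and for 24.4% on letter B, 1711 higher and 3078 lower. Centring raised the shares to 26.7% and 26.2%.

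The width of the difference depended on probe level in number 2. The standard deviation across letter A probes was 0.55 in number 1, 0.93 in number 2 and 0.54 in number 3, and across letter B probes 0.49, 0.81 and 0.46. Probes were divided by mean level into 5 equal classes. On letter A the class with the lowest levels had standard deviations of 0.56, 0.59 and 0.57 in numbers 1, 2 and 3. The class with the highest levels had 0.59, 1.54 and 0.63. The middle class of letter A had 0.51, 0.69 and 0.47. On letter B the lowest class had 0.54, 0.66 and 0.53 and the highest 0.47, 1.10 and 0.53. Number 2 was the widest in all 5 classes on both letters. It thus exceeded the other numbers at every level, by little among the dimmest probes of letter A and most among bright probes on both letters. Of the 2-fold probes 63.7% lay in the brightest class on letter A and 40.8% on letter B.

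**Figure D4:**
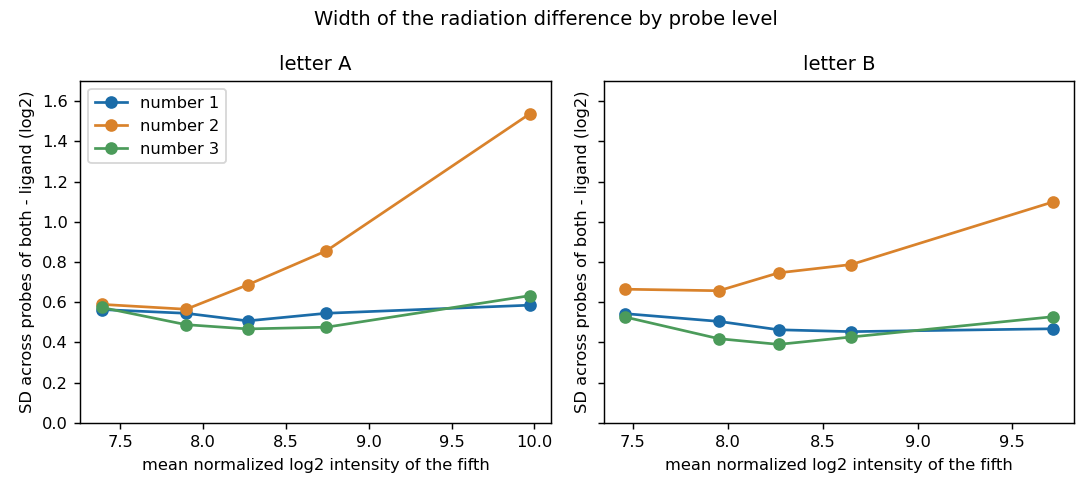
Standard deviation across probes of the difference between both treatments and ligand (log2) in 5 equal classes of mean normalized level, for each replicate number on letters A and B. In number 2 it rises with level, to 1.54 on letter A and 1.10 on letter B, while numbers 1 and 3 stay between 0.39 and 0.63.

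Whether radiation acted differently with the ligand present was tested as the interaction, the difference in cells with the ligand minus that in cells without it. In limma 0 of 39400 probes (0%) had an adjusted p under 0.05, with a lowest adjusted p of 0.969, and 1543 (3.92%) had an unadjusted p under 0.05. These were uneven, at 333 (1.69%) on letter A and 1210 (6.14%) on letter B. For radiation alone against untreated cells 0 probes passed in limma (lowest adjusted p 0.779) and 2333 (5.92%) had an unadjusted p under 0.05. These were uneven in the same way, at 587 (2.98%) on letter A and 1746 (8.86%) on letter B. For radiation in ligand-treated cells the shares were alike, at 4.85% and 4.9%. The radiation differences with and without ligand, which share no arrays, had Spearman correlations across letter A probes of 0.182 in number 1, 0.622 in number 2 and 0.063 in number 3. On letter B they were 0.045, 0.541 and 0.0056. A likeness between radiation with and without the ligand was thus seen in number 2 and was weak in the other numbers. In number 2 the irradiated and unirradiated samples stood apart from each other. The letter A array of radiation alone in number 3 was dim, and its values were recorded in coarse steps. Its median deposited intensity was 34.5, against 218.5 in untreated cells of that number. It entered the letter A interaction and the number 3 radiation-alone values of the letter A probes named below.

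One probe each way was named on each letter by a rule of size, and none of the 4 passed. The rule took the widest mean difference among probes measured on every array, at or above the median level, a shared sign over the 3 numbers and an unadjusted p under 0.01. On letter A 34 higher and 25 lower probes met the conditions, and on letter B 20 and 32. The 4 probes were thus chosen for their difference, and their values are a description. Each had a limma adjusted p of 0.813.

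Probe obshum40K:A#08850 was lower after irradiation in every pair, one sign being required by the rule. It was at 7.86, 7.60 and 8.88 after both treatments in numbers 1, 2 and 3, and at 9.18, 8.77 and 10.54 after the ligand. The groups overlapped, since number 3 was higher than the others in both, but the 3 differences were alike at -1.32, -1.17 and -1.66. As deposited the intensities were 427, 176 and 268 after both treatments against 1392, 786 and 894 after the ligand. The mean difference was -1.38 with a standard error of 0.19 (95% interval -1.81 to -0.95), which is 2.61-fold lower, and its unadjusted limma p of 4.31e-05 was the lowest of letter A. Radiation without the ligand gave -0.09, -0.36 and 0.02, a mean of -0.14. The interaction was -1.24 with a standard error of 0.27 and an adjusted p of 0.969. Its run of spots had a median difference of 0.49 in number 1 and -0.77 in number 3, and with the runs centred the differences were -1.73, -1.12 and -0.85. Untreated cells, at 9.16, 8.87 and 9.79, lay near the ligand values in numbers 1 and 2 and below the ligand value in number 3. Cells given radiation alone were at 9.07, 8.51 and 9.81. Among the 4 groups the cells given both treatments thus held the lowest value in each number.

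Probe obshum40K:B#32314 was the widest higher probe of letter B. It was at 12.34, 11.17 and 12.85 after both treatments and at 10.74, 7.67 and 11.46 after the ligand, so number 2 had the lowest ligand value and the groups overlapped. The differences were 1.60, 3.50 and 1.38, with a mean of 2.16 and a standard error of 0.56, which is 4.47-fold higher (95% interval 0.89 to 3.43 in log2). Over numbers 1 and 3 the mean was 1.49. Radiation without the ligand gave 1.33, 3.74 and 0.82, a mean of 1.96, and the interaction was 0.20 with a standard error of 0.79. The rule fixed one sign for the 3 pairs with the ligand. The 3 pairs without it, whose sign the rule did not use, were also higher after irradiation, most in number 2. Its level also differed between untreated samples, at 11.02 in number 1 and 8.14 in number 2.

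Probe obshum40K:A#05612 was at 11.37, 10.70 and 12.53 after both treatments and at 8.72, 7.57 and 12.14 after the ligand. Its differences of 2.65, 3.13 and 0.39 were wide in numbers 1 and 2 and narrow in number 3, and the groups overlapped. The mean was 2.06 with a standard error of 0.60, or 4.16-fold higher, and 1.52 over numbers 1 and 3. After radiation alone the differences were 0.20, 2.89 and 2.78, so the narrow number was another one. Probe obshum40K:B#44633 was at 8.51, 8.26 and 11.90 after both treatments and at 8.81, 9.81 and 13.49 after the ligand. Its differences of -0.30, -1.55 and -1.59 had a mean of -1.15 and a standard error of 0.31, or 2.21-fold lower. Radiation alone gave -0.12, -1.57 and -0.59, lower in all 3 numbers and least in number 1, as with the ligand.

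**Figure D5:**
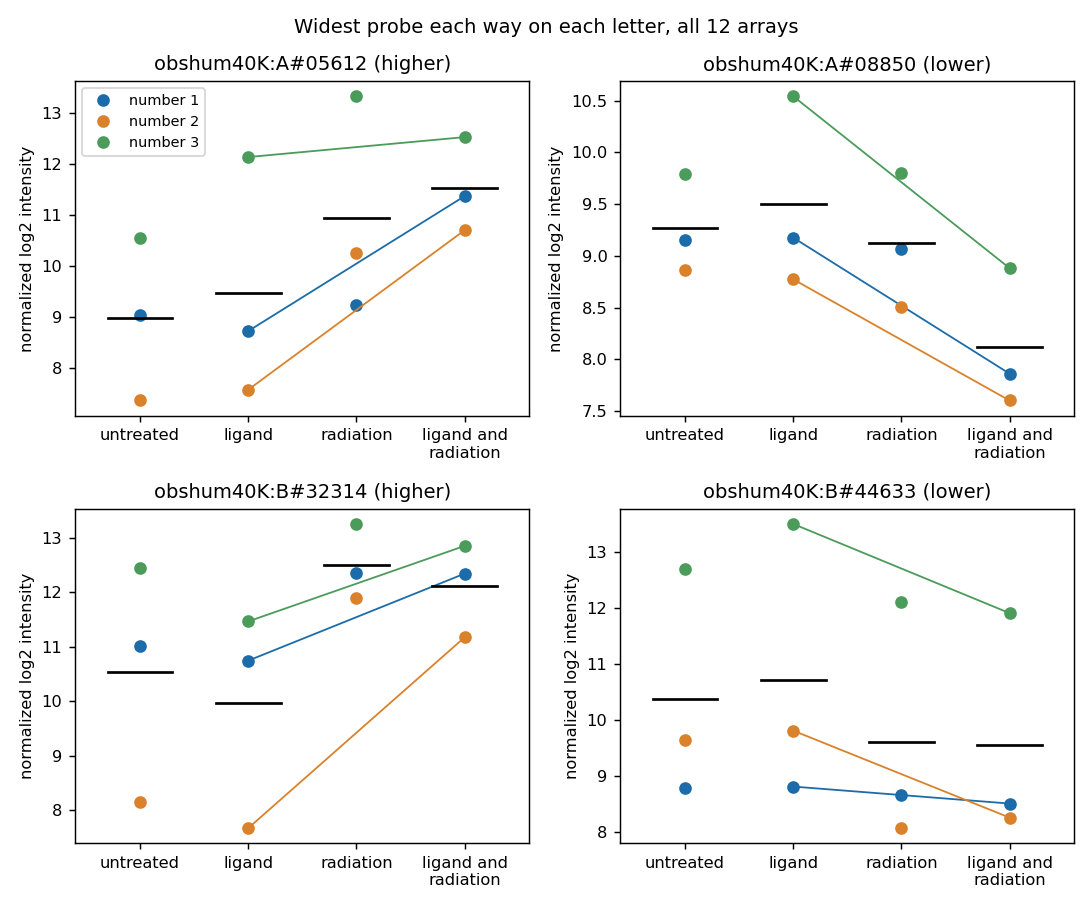
Normalized log2 intensity of the 4 named probes on all 12 arrays of their letter, by treatment, with points coloured by replicate number, black bars at the group means and lines joining the ligand sample and the sample given both treatments of a number. The lines of A#08850 change by -1.32, -1.17 and -1.66, and those of B#32314 rise by 1.60, 3.50 and 1.38.

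Leaving out the number 3 array given both treatments let 4 letter B probes pass in limma, each at an adjusted p of 0.0200. Leaving out both samples of number 3 gave 0 calls, with a lowest adjusted p of 0.110, and leaving out all 4 groups of number 3 gave 0 with 0.574. The calls were thus made only with the ligand array of number 3 kept and its pair left out. The 4 probes fall outside the rule for named probes and were chosen after their values were seen. Probe obshum40K:B#13270 had differences of 3.30, 2.72 and -0.01 in numbers 1, 2 and 3. For obshum40K:B#31689 they were 2.37, 2.40 and -0.03, and for obshum40K:B#23174 they were 2.24, 1.99 and 0.07. Probe obshum40K:B#27718 was lower, with deposited intensities of 23.4 and 29 after both treatments in numbers 1 and 2 against 702 and 596 after the ligand. The median empty spot of the arrays given both treatments was at 34.5 and 20.0, so its level there is only bounded and no fold is given. In number 3 its difference was 0.24. All 4 differed widely in numbers 1 and 2 and hardly in number 3, and with all 3 numbers each had an adjusted p of 0.813 in limma. Radiation without the ligand gave each of them differences between -0.49 and 0.36. The 4 probes lay in runs 21, 41, 41 and 45, among those spaced 4 apart that held many high letter B probes of number 2. All 4 were themselves beyond 4-fold in number 1, and B#13270 and B#31689 were over 4-fold higher in number 2. They thus overlap the sets whose position was described above, and their runs are not a separate observation.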

How the data were processed

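Total RNA was amplified with T7 RNA polymerase and labelled with Cy3, per the labels' protocols. The deposited intensity values are spot brightness on a linear scale, 1 column per array, per the file headers. For the scanner, the software, the background step and the scaling, nothing was given in the sources used here. A value table deposited by the authors on the log2 scale served as an alternative; its normalization is not stated, and its direction and base were set against the intensities.

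Values listed as not detected were missing. Log2 intensities were quantile normalized within each letter, with no offset, and each letter was fitted alone over 12 arrays in limma 3.58.1 (lmFit, then eBayes; R version 4.3.3), with replicate number as a block. Benjamini-Hochberg adjustment ran over the p-values of both letters. Arrays of one number and different treatments correlated in their deviations from group means at 0.221 or more on letter A and 0.200 or more on letter B, all above 0.1, so the numbers, taken from the titles, were treated as pairs. The number 2 array given both treatments had 0.267 with its own ligand array and 0.341 with that of number 1 on letter A, and 0.200 and 0.170 on letter B. Samples were grouped by title. Named probes were the widest each way on each letter at an unadjusted p under 0.01, measured on all arrays, at or above the median level and of one sign in 3 numbers. Control sequences were given as a list. The comparison, rules and lists were chosen with earlier results of these data known. Alternatives covered the block, the arrays in the fit, normalization, position, offset, filters, weights, spread, adjustment and left-out samples. The number of arrays limits the precision. Figures were drawn with matplotlib 3.10.9.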

Additional observations from a re-analysis of the deposited data

Results flagged for a closer look

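Empty spots, which entered no test above, were brighter relative to the probes after both treatments. For each array the median empty spot was divided by the median probe, and this was compared between both treatments and ligand in numbers 1 and 2, where empty spots are listed. The ratio was 1.55 and 1.06 on letter A and 1.11 and 1.56 on letter B, with a geometric mean of 1.3. It is given here because each of the 4 ratios exceeded 1, though they come from only 2 pairs of samples. Empty spots held 3.58% to 7.18% of the probe median after the ligand and 5.55% to 10.7% after both treatments. The same ratio was 1.02 for plant controls and 1.37 for human controls, each above 1 in 3 of 4 cases. As deposited, empty spots were dimmer after both treatments in number 2, at 16.8 against 37.2 on letter A. Relative to the probes they were also brighter after radiation alone than in untreated cells, in both numbers and on both letters. On letter A in number 2 the empty and probe medians were 17 and 250.4 after radiation alone, and 27.2 and 654.3 in untreated cells. The shift was thus not particular to cells with the ligand.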

How the results depend on the processing

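The 2 counts of probes past the test, for radiation in ligand-treated cells and for the interaction, were refitted under 29 alternatives, 56 refits in all, and 54 gave 0. On values as deposited 7 letter A probes passed for radiation in ligand-treated cells, all lower after both treatments. Their log2 differences ran from -4.03 to -2.93, with limma adjusted p down to 2.3e-05. Values as deposited keep differences in brightness between arrays, and whether brightness accounts for these calls was not tested. With single samples or numbers left out, the count for radiation in ligand-treated cells ran from 0 to 4. The 4 came without the number 3 arrays given both treatments. Without the replicate block, the alternative to the pairing, it was 0, so the pairing changed no call. The count at an unadjusted p under 0.05 moved more, from 140 in a fit of only the compared groups without the block to 3281 without the number 3 arrays given both treatments. It was 219 with no block (132 higher and 87 lower), 809 in the compared groups with the block, 838 on the authors' deposited log2 values and 3042 with array weights. Leaving out number 2 gave 1470 (759 higher and 711 lower), and no block, the fits of the compared groups and the authors' log2 values also turned the balance to higher. Interaction counts ran from 145 to 3297. Beyond 2-fold the count ran from 509 to 2322, with 2087 of 2318 lower on values as deposited. None of the 116 refits of the 4 named probes passed. Each probe kept its sign, which the rule of one sign in 3 numbers largely fixed in advance. Leaving out the irradiated arrays of number 2, and centring runs without number 2 or without the block, were chosen after the data were seen. A share of one sign over 3 numbers could not be had with a number left out. The cause of these shifts was not tested. Changes well under 0.5 log2 units were within the 95% interval of a typical probe.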
